A study of Mus musculus with 8 samples.

Results

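The array read 241576 probesets, small groups of probes that each cover a stretch of transcript, and the platform annotation used here gives no gene symbol for 25004 of them. These 25004 probesets are described here; the other 216572 carry 1 symbol (212097) or several (4475). RNA came from mouse pro-B cells, early B-lineage cells in which immunoglobulin heavy chains are assembled, in 8 samples, 1 array each, that form 4 groups of 2. Bone marrow controls carried the floxed, intact Setdb1 gene (Setdb1 C/C) and bone marrow deleted cells lacked it (Setdb1 Δ/Δ), both with no Bcl2 transgene. Cultured controls (C/C) and cultured deleted cells (Δ/Δ) were Bcl2-transgenic and were kept in interleukin-7 (IL-7) for 4 days, so culture and transgene always went together. What deleted the gene, and the strain, age and sex of the mice, are not given in the sources used here. The protocol text describes culture for all samples, while the design text says that the bone marrow cells were taken directly, and the latter was followed. No label ties the arrays of a group to different mice or cultures. The p-values therefore reflect the spread between these arrays alone. In bone marrow that spread may be technical. In culture the 2 arrays of a group differed in Xist and Y-linked genes, as given below, so they were not repeats of 1 RNA sample.

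Setdb1 is a methyltransferase that places trimethyl marks on lysine 9 of histone H3, and it is known for holding endogenous retroviruses silent. Endogenous retroviruses and other repeats lie in many copies across the genome, and an array annotation built on named genes can leave their transcripts without a symbol. Segments of the immunoglobulin genes, which pro-B cells transcribe before and during rearrangement, and multi-copy gene families are other kinds of sequence that often lack one. A missing symbol therefore says that a probeset is unnamed here, not that it lies outside a gene.

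The platform table used here holds 0 accessions, 0 gene identifiers and no positions, so the unnamed probesets could not be classed by transcript or by place in the genome, and no probe sequence is printed. A few features of the files themselves were used in place of that. Probesets were compared by their place in identifier order, by whether several probesets had identical values in all 8 arrays, and by the symbols carried by other probesets of the same uninterrupted run of identifiers. Such a run usually belongs to 1 symbol entry: of 19008 runs with at least 2 listed probesets, 17906 (94.2%) carried a single one. A neighbour's symbol does not name an unlisted probeset, and is given only as a description of the run.

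The targeted gene could not check the labels. The median of the 23 probesets listed as Setdb1 was 7.34 and 6.87 in bone marrow controls, 6.56 and 6.68 in deleted bone marrow cells, 6.88 and 6.23 in culture controls and 6.61 and 7.10 in deleted cultures. With limma 0 of the 23 passed, in 0 did all deleted arrays lie below all controls, and the lowest mean difference was -0.99 (SE 0.45, adjusted p = 0.482). Which of them cover the deleted part of the gene is not known here.

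The arrays differed in ways that the labels do not give. Xist, the RNA made from the inactive X chromosome of female cells, read 10.38 in culture control 2 and 10.19 in deleted culture 1, and between 3.11 and 4.06 in the other 6 arrays. The Y-linked genes Kdm5d, Eif2s3y and Uty read between 2.34 and 3.52 in those same 2 arrays and between 5.95 and 8.81 elsewhere. The neutrophil and monocyte markers (13 of 14 matched on the array, 0 of these dim in every array) had a mean log2 level of 9.74 to 9.86 in bone marrow controls and 9.30 to 9.54 in deleted bone marrow cells, against 4.92 and 7.77 in culture controls 1 and 2 and 5.97 and 8.42 in deleted cultures 1 and 2. The marrow means hide members of opposite direction. Mpo read 9.58 and 11.06 in bone marrow controls and 11.88 in both deleted arrays. Cd68 read 11.02 and 8.32 in bone marrow controls and 7.61 and 7.11 in deleted arrays. Pro-B markers (11 of 12 matched, 0 dim in every array) had means between 9.01 and 10.03. These means also hide members of opposite direction. Rag1 read 9.995 and 9.325 in culture controls and 7.03 and 6.418 in deleted cultures. Rag2 read 6.536 and 6.622 in culture controls and 5.3 and 5.386 in deleted cultures. Dntt read 6.261 and 8.915 in culture controls and 9.427 and 9.891 in deleted cultures. In bone marrow Rag2 and Dntt were higher in both deleted arrays, and Rag1 overlapped. The stromal and endothelial markers (6 of 6 matched, 0 dim in every array) had means of 6.66 to 7.18 in the 4 deleted arrays, all above the 5.99 to 6.56 of the 4 controls. Of these, Sparc, a matrix protein, read 8.83 to 10.12 in deleted arrays and 6.10 to 8.37 in controls. Col1a1 and Col1a2 were also higher in both deleted arrays of each setting, and Cxcl12 was so in culture only. Pecam1 and Cdh5 did not rise. Pecam1 read 8.75 and 8.19 in culture controls and 7.44 and 6.81 in deleted cultures. Cdh5 read 4.27 to 5.07 in controls and 4.23 to 4.47 in deleted arrays. The mast cell and basophil markers (5 of 5 matched, 0 dim in every array) had means of 5.55 and 6.29 in bone marrow controls, 4.65 and 4.12 in deleted bone marrow cells and 3.77 to 4.24 in culture. The erythroid, T cell, dendritic and plasma cell lists had means between 4.05 and 7.17, and 1 erythroid marker was dim in every array. The part of these differences in the results below was not tested. A fit with the Xist split as a covariate is given with the counts. It called 0 of all probesets, as did a fit with the replicate number as a block. Its counts therefore cannot show the part of the split.

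Unnamed probesets were dimmer than named ones as a body but had a larger share at the bright end. Their median log2 value, averaged over the 8 arrays, was 4.91 against 5.82 for probesets with a symbol. A probeset was called dim when it did not exceed 4.04, the 25th percentile of all values, in at least 2 arrays. By this measure 18041 of the 25004 (72.2%) were tested, against 84.5% of named probesets, and 5654 lay under it in all 8 arrays. At the other end, 1094 unnamed probesets (4.38%) averaged above 10, against 2.43% of named ones.

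Identifier order split the unnamed probesets into 2 blocks. The 6616 with identifiers below the lowest listed one had a median of 5.13, and 160 (2.42%) averaged above 10. The remaining 18388 lay among or after the listed identifiers, with a median of 4.83, and 934 (5.08%) averaged above 10. The brightest 5 were 10338026, 10338059, 10343086, 10593866 and 10340366, which read between 13.21 and 13.70 in every array. All of these except 10593866 belong to the early block.

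**Figure D1:**
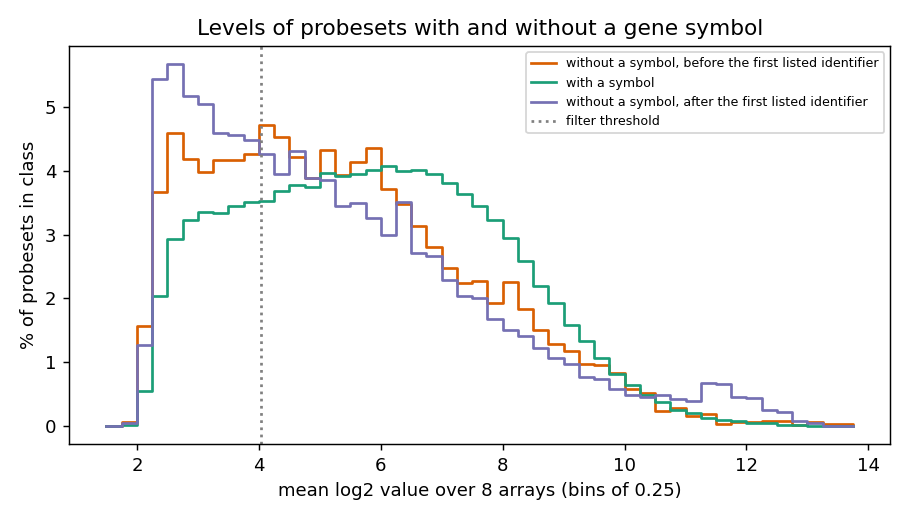
Share of probesets (%) in each class by mean log2 value over the 8 arrays, in bins of 0.25, with the threshold for dim probesets as a dotted line. Both unnamed classes peak below the named one (medians 5.13 and 4.83 against 5.82), and the later unnamed block has a shoulder above 10.

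Within each group the 2 arrays correlated more closely over the unnamed probesets than over the named ones. For control and deleted marrow r was 0.952 and 0.967 (named 0.915 and 0.951), and for control and deleted cultures it was 0.954 and 0.949 (named 0.930 and 0.918). These correlations run across probesets, which are not independent replicates. The median of the unnamed probesets lay between 4.89 and 5.03 in the 8 arrays.

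Copies of one measurement were frequent. Of the unnamed probesets, 1082 (4.33%) had values identical to those of another probeset in all 8 arrays, against 1% of named ones. They formed 399 sets, 246 of them pairs and 18 with at least 10 probesets, and none came from the early block. Probesets that share every value are 1 measurement listed several times, so the 25004 unnamed probesets hold 24321 distinct profiles, and a count of probesets is larger than a count of measurements.

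In 289 sets every probeset was unnamed. The largest, with 50 probesets that begin at 10345437, read between 5.76 and 6.62 in the arrays. A set of 18 that begins at 10384553 was bright throughout, at 12.28 to 12.82, and the set of 9 that begins at the next identifier, 10384554, read 10.42 to 11.76. Sets of 33 and 23 averaged 2.36 and 2.40, which is dim. In the other 110 sets unnamed probesets, 190 in all, shared their values with listed ones. Listed partners included Sly, a multi-copy Y-linked gene of male germ cells, the pancreatic amylase genes (Amy2a1, Amy2a5, Amy2b and Amy2a2, listed together), the histone gene Hist1h2ad, the ribosomal protein gene Rpsa and Gapdh (listed with Gm12070), a glycolytic enzyme.

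Setdb1 deletion was compared with the intact gene within bone marrow and within culture, and as the mean of both. The fit ran over all 200969 tested probesets with limma, and adjusted p-values (Benjamini-Hochberg) cover all of them. In bone marrow 0 unnamed probesets passed an adjusted p of 0.05, as did 0% of all probesets, and 1098 (6.09%) had an unadjusted p under 0.05 against 7.53% of all. With an intensity trend in the prior variance the bone marrow count was 24, where 102 of all probesets passed. Lower RNA per cell and fewer cells of a type cannot be told apart in these bulk samples, here or below.

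In culture 10 unnamed probesets rose and 0 fell, or 0.0554% of those tested, against 0.00846% of all probesets (0.00697% higher and 0.00149% lower). At an unadjusted p under 0.05 there were 1651 (9.15%), against 10.2% of all. These 10 hold only 3 distinct profiles. The 7 named probesets that passed in the same comparison were 3 of Cd55 (a complement inhibitor), which fell, and 3 of Acoxl and 1 of St6galnac5 (a sialyltransferase), which rose.

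The mean of both deletions called most: 19 unnamed probesets rose and 12 fell, together 31 (0.172%) against 0.0841% of all probesets tested (0.0343% higher and 0.0498% lower). At an unadjusted p under 0.05 there were 1715 (9.51%), against 11% of all. They hold 22 distinct profiles, 10 that rose and 12 that fell. The balance of directions moved with the processing. With an intensity trend in the prior variance 37 were higher and 55 lower. These were 92 of the 18041 unnamed probesets tested, where 1057 of all 200969 passed. The unnamed share was then no higher than that over all. With the filter on dim probesets set at the median 30 were higher and 31 lower, and 541 of all probesets passed. In culture the trend gave 20 higher and 11 lower, where 187 of all probesets passed. The filter at the median gave 10 higher and 3 lower there, where 47 of all passed. The mean of the stromal and endothelial markers was also higher in the deleted arrays, at the levels given above. Pecam1 and Cdh5 did not rise, and the part of the list in these counts was not tested. All 31 came from the later block. Of the unnamed probesets that belong to a set of identical values, 13 of 539 tested passed (2.41%), against 18 of 17502 (0.103%) with values of their own. Among named probesets 0 of 1391 in such sets passed. The 13 probesets are 4 profiles.

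These counts rested on the full set of arrays and on how copies were counted. With 1 probeset per set of identical values, the culture count was 0 (lowest adjusted p 0.0598). The count for the mean was then 19, where 115 of all probesets passed. Without bone marrow control 1 the mean of both deletions called 11, without culture control 1 it called 9 and without culture control 2 it called 5, and it called 0 without bone marrow control 2 or any one of the 4 deleted arrays. In culture the count was 7 without culture control 1, 5 without culture control 2, and 0 without any other single array. With the Xist split as a covariate, without both high-Xist arrays, and with the replicate number as a block, the counts for culture and for the mean were 0.

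Over all tested unnamed probesets the median difference was 0.01 in bone marrow and -0.06 in culture, against 0.04 and 0.00 over all probesets. In culture the early block lay at -0.19 and the later block at -0.02. Both deleted cultures lay below both controls in 4374 unnamed probesets (24.2%, against 20.4% of all) and above them in 2861 (15.9%, against 19.8% of all). Of the 5069 tested probesets of the early block 1580 (31.2%) lay below and 629 (12.4%) above. Bone marrow did not show this lean. There 3218 unnamed probesets (17.8%, against 17.4% of all) lay below and 3728 (20.7%, against 22% of all) above. For the early block the bone marrow shares were 19.5% below and 18% above. Over both settings the 4 deleted arrays lay below the 4 controls in 596 unnamed probesets (3.3%, against 2.9% of all) and above them in 441 (2.44%, against 3.07% of all). The bone marrow and culture differences correlated at r = 0.259 across the 18041 unnamed probesets and at 0.129 across the 182928 named ones, where probesets of one transcript and copies of one measurement are not independent points.

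**Figure D2:**
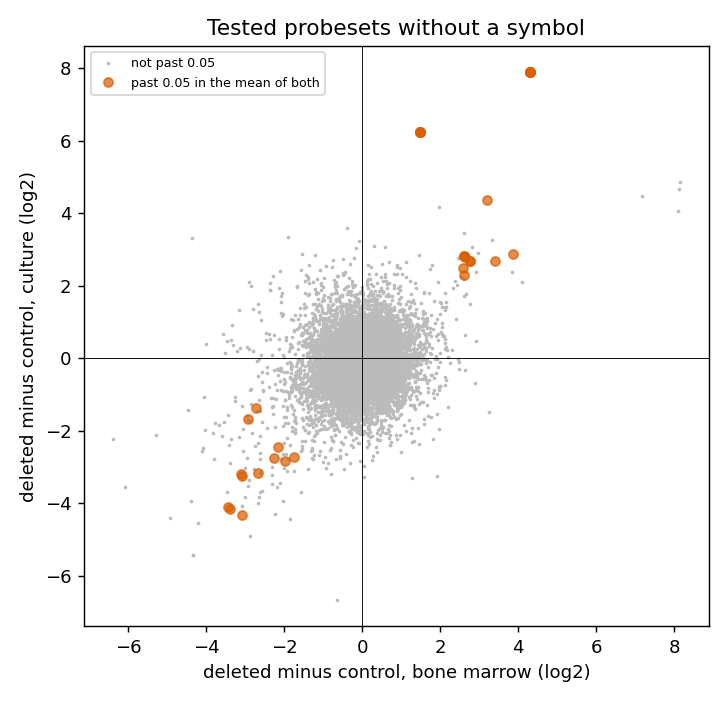
Deleted minus control (log2) in culture against bone marrow for the 18041 tested unnamed probesets, 1 point each, with the 31 past 0.05 in the mean of both deletions in orange. Called probesets lie in the upper right (19, many of them superimposed because their values are identical) and the lower left (12), and larger differences that did not pass stand around them.

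The largest rise that passed was a single profile listed at 5 identifiers, 10351505, 10415082, 10520122, 10578407 and 10586077. It read 7.79 and 7.37 in bone marrow controls and 11.81 and 11.94 in deleted bone marrow cells. In culture it read 2.84 and 4.61 in controls and 11.55 and 11.67 in deleted cells. All 4 deleted arrays were alike to within 0.4 and stood far above every control, and the controls themselves were lower in culture than in bone marrow. It rose by 6.09 (SE 0.39, adjusted p = 0.0205) over both settings and by 7.89 (SE 0.55, adjusted p = 0.0323) in culture. Bone marrow alone gave 4.30 (SE 0.55, adjusted p = 0.187). Culture control 1 lay under the threshold for dim probesets, so the size in culture is uncertain.

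A second profile, at 10415083, 10520123, 10578406 and 10586078, sits next to that profile in 4 of its 5 places. It read 8.14 and 6.99 in bone marrow controls, 9.34 and 8.76 in deleted bone marrow cells, 3.70 and 3.28 in culture controls and 9.74 and 9.72 in deleted cultures. Control and deleted arrays did not overlap in either setting, and the gap between them was smaller in bone marrow than in culture. The mean difference was 3.86 (SE 0.31, adjusted p = 0.0273). In culture the difference was 6.24 (SE 0.44, adjusted p = 0.0323), and both controls lay under the dim threshold. At the place where the larger profile stands without it, 10351505, the neighbour in the run is listed as AI506816 and read 1.68 in the mean difference (SE 0.27, adjusted p = 0.113).

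The probeset 10510222 was bright and tight in deleted cells. It read 8.91 and 8.66 in bone marrow controls, 11.99 and 12 in deleted bone marrow cells, 7.45 and 8.23 in culture controls and 12.22 and 12.20 in deleted cultures. Its mean difference was 3.79 (SE 0.24, adjusted p = 0.0205), and in culture it was 4.37 (SE 0.33, adjusted p = 0.0498). Of its 2 unnamed run neighbours, 10510223 read 3.29 (SE 0.77, adjusted p = 0.221), with culture control 1 at 10.08 and culture control 2 at 6.19, and 10510224 read 0.06 (SE 0.29).

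A run of 8 unnamed probesets, 10538893 to 10538900, was higher with deletion in both settings at every member. The mean difference ranged from 1.88 to 3.37, with a median of 2.68, and 4 of the 8 passed. The largest, 10538896, read 6.36 and 6.61 in bone marrow controls, 10.70 and 10.03 in deleted bone marrow cells, 8.64 and 8.11 in culture controls and 11.36 and 11.12 in deleted cultures. It rose by 3.37 (SE 0.25, adjusted p = 0.0261) over both settings. Bone marrow alone gave 3.88 (SE 0.35, adjusted p = 0.137), and culture alone gave 2.86 (SE 0.35, adjusted p = 0.126). The next member, 10538897, rose by 3.04 (SE 0.22), 10538894 by 2.72 (SE 0.21) and 10538899 by 2.53 (SE 0.24). The lone unnamed identifier just before the run, 10538891, rose by 2.45 (SE 0.27, adjusted p = 0.0492).

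Values close to those of this run appear elsewhere in identifier order. The profile shared by 10401934 and 10504760 read 8.44 and 8.62 in bone marrow controls, 11.36 and 10.92 in deleted bone marrow cells, 8.84 and 9.14 in culture controls and 11.89 and 11.71 in deleted cultures. In the same order 10538894 read 8.16, 8.41, 11.14, 10.72, 8.71, 8.98, 11.70 and 11.56, which is lower in every array and by no more than 0.3. The shared profile rose by 2.71 (SE 0.21, adjusted p = 0.0261). A further profile shared by 10401932 and 10401938 rose by 2.72 (SE 0.20), from 6.71, 6.91, 7.27 and 7.52 in the 4 controls to 9.79, 9.34, 10.08 and 10.09 in the 4 deleted arrays.

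**Figure D3:**
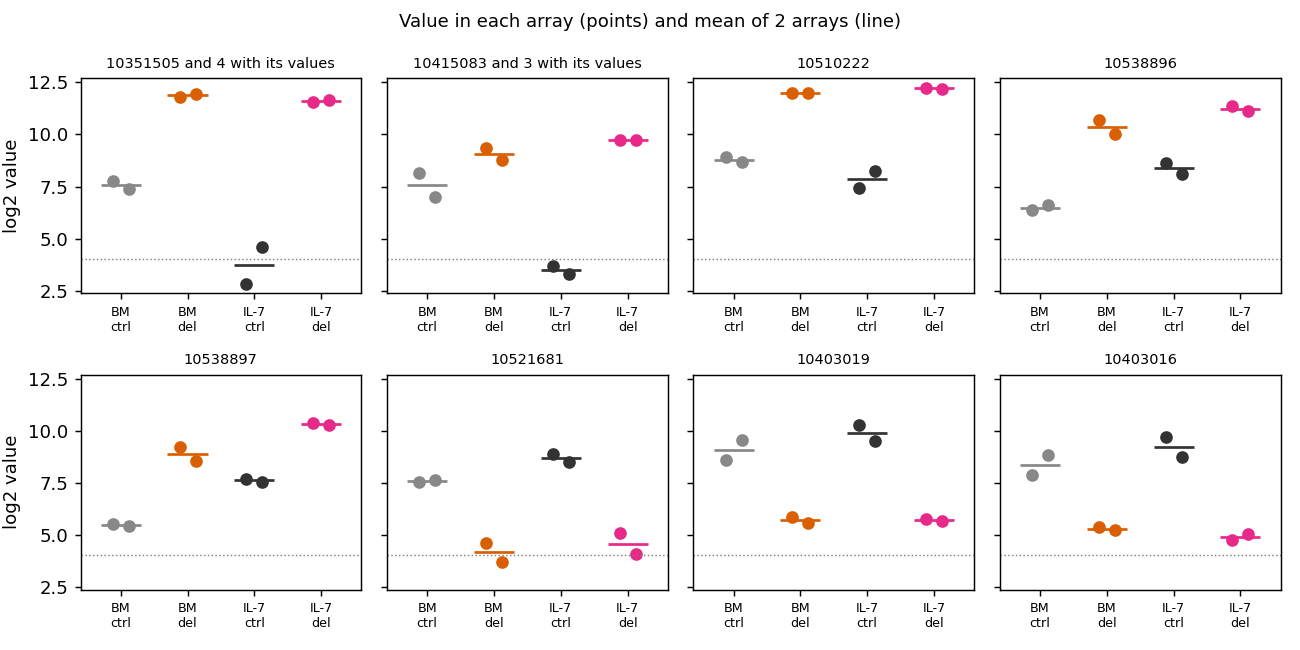
Log2 value in each array for the 5 largest rises and the 3 largest falls, 1 panel per profile, past 0.05 in the mean of both deletions, with points for arrays, a line for the mean of 2 and a dotted line at the dim threshold. BM is bone marrow, ctrl is control, del is deleted. In each of the 8 panels the deleted arrays of a setting lie on one side of its controls.

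The falls were concentrated in a run of 11 unnamed probesets, 10521679 to 10521689, with 8 of the 12 calls. Every member read lower with deletion in both settings, with mean differences from -3.78 to -1.50 and a median of -2.51. The probeset 10521680 read 10.45 and 10.51 in bone marrow controls, 7.38 and 7.39 in deleted bone marrow cells, 11.75 and 11.48 in culture controls and 8.72 and 8.11 in deleted cultures. It fell by 3.15 (SE 0.22, adjusted p = 0.0261), and neither setting passed alone: bone marrow gave -3.09 (SE 0.31, adjusted p = 0.137), culture -3.20 (SE 0.31, adjusted p = 0.101). Its neighbour 10521679 fell by 3.17 (SE 0.23), and 10521681, the largest in the run, fell by 3.78 (SE 0.32) to 3.69 and 4.09 in the lower array of each deleted group. The 3 members that did not pass, 10521682, 10521683 and 10521689, read -3.02 (SE 0.34, adjusted p = 0.0542), -1.50 (SE 0.25) and -2.23 (SE 0.30). No probeset of the run is listed with a symbol.

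**Figure D4:**
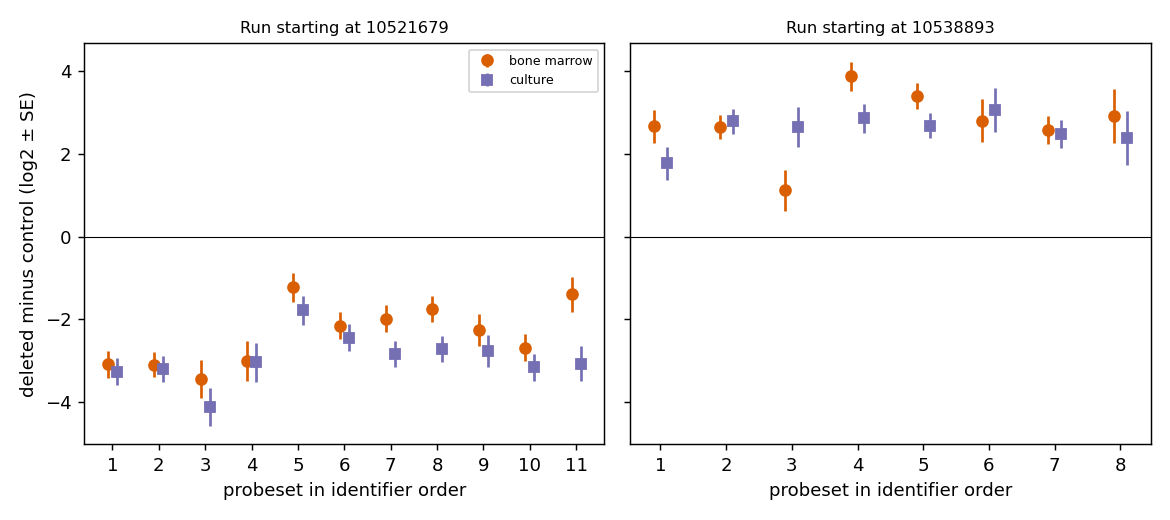
Deleted minus control (log2, points) with the standard error of the fit (bars) for each probeset of 2 unnamed runs, in identifier order, in bone marrow (circles) and culture (squares). All 11 probesets of the left run lie below 0 and all 8 of the right run above 0 in both settings.

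A further 3 falls lay in or beside runs with MHC class II or immunoglobulin symbols. The unnamed 10450159 belongs to a run whose other 5 probesets are listed as H2-Aa, a chain of MHC class II. It read 10.09 and 10.18 in bone marrow controls, 7.41 and 7.43 in deleted bone marrow cells, 10.14 and 10.57 in culture controls and 8.98 and 8.96 in deleted cultures, and fell by 2.05 (SE 0.19, adjusted p = 0.0369). The 5 listed probesets read between -2.79 and -0.95, and 3 of them passed. The unnamed 10403019 shares a run with 1 probeset listed as Igh, the immunoglobulin heavy chain locus. It read 8.62 and 9.58 in bone marrow controls, 5.88 and 5.55 in deleted bone marrow cells, 10.26 and 9.49 in culture controls and 5.75 and 5.67 in deleted cultures, and fell by 3.77 (SE 0.30, adjusted p = 0.0273), where its listed neighbour read -3.84 (SE 0.49, adjusted p = 0.0712). The run just before it is unnamed throughout, and its member 10403016 fell by 3.70 (SE 0.32).

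The remaining fall was 10543786, in an unnamed run of 5. It read 6.30 and 5.78 in bone marrow controls, 3.04 and 3.17 in deleted bone marrow cells, 8.47 and 7.74 in culture controls and 6.48 and 6.34 in deleted cultures. It fell by 2.31 (SE 0.25, adjusted p = 0.0481), and with 1 probeset per set of identical values its adjusted p was 0.0508. Both deleted bone marrow arrays lay under the dim threshold. The other 4 members read between -2.03 and -1.20.

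Large differences reached beyond the calls. The 4 deleted arrays lay above the 4 controls by a mean of at least 2 in 36 unnamed probesets (0.2% of those tested, against 0.122% of all probesets) and below by as much in 62 (0.344%, against 0.239% of all). Of the 36, 34 lay in runs with no listed probeset, in 22 runs. Of the 62, 35 lay in such runs and 2 in runs with H2 symbols. In 18 the first symbol of the run in sorted order was an immunoglobulin one, and 7 lay in the remaining runs. Those 7 include 1 probeset, 10538916, whose run lists Igk, also an immunoglobulin symbol, after Gm7202.

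The longest of the immunoglobulin runs holds 116 probesets, 10402865 to 10402980, 58 of them unnamed and the rest listed mostly as Igh. Of the 55 unnamed probesets tested there, 49 read lower with deletion in both settings and 1 higher in both. Their median difference was -1.84 in bone marrow and -1.55 in culture, where the medians over all probesets were 0.04 and 0.00. In 15 of the 55 all 4 deleted arrays lay below all 4 controls, against 2.9% of all probesets, and 0 passed 0.05. The 54 listed probesets tested in the run had a median of -1.08 for the mean of both deletions, against -1.79 for the unnamed ones. In 18 of these 54 all 4 deleted arrays lay below all 4 controls. In this run 10402979 had the largest separated difference, at -4.82 (SE 0.53, adjusted p = 0.0512). It read 8.02 and 8.90 in bone marrow controls, 1.98 and 2.81 in deleted bone marrow cells, 6.68 and 8.81 in culture controls and 4.67 and 3.69 in deleted cultures. Single members of the run differed between arrays of one group: 10402973 read 12.23 in culture control 1 and 5.48 in culture control 2.

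Some of the largest differences came with controls that disagreed. The neighbours 10582546, 10582547 and 10582548 read 3.07 to 5.87 in bone marrow controls, 12.22 to 13.09 in deleted bone marrow cells and 12.36 to 13.14 in deleted cultures. Culture control 1 read 12.71 to 13.10, as high as deleted cells, and culture control 2 read 3.42 to 3.94. Their mean differences of 6.07, 6.50 and 6.40 had standard errors of 1.73, 1.90 and 1.80 and adjusted p-values from 0.290 to 0.303. These 3 probesets were chosen after their values were seen.

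The unnamed 10608259 shares its values with 8 probesets listed as Sly. This profile read 2.57 and 2.80 in bone marrow controls, 7.04 and 5.99 in deleted bone marrow cells, 2.53 and 2.32 in culture controls and 2.29 and 7.32 in deleted cultures 1 and 2. It was therefore above the dim threshold in 3 of the 4 deleted arrays and in 0 of the 4 controls, and the deleted array in which it was low is one of the 2 with a high Xist value. The mean difference was 3.10 (SE 0.996, adjusted p = 0.338). The other tested sets shared with Sly, which begin at 10608218, 10608215 and 10608335, had mean differences of -0.25, 0.11 and -0.32. Their standard errors were 0.38, 0.20 and 0.37. The profile of 10608259 was chosen after its values were seen, and its difference between deleted arrays with high and low Xist values was not tested.

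A run of 17 unnamed probesets, 10608139 to 10608155, followed the Xist split rather than the study's groups. In all 17 both high-Xist arrays lay below the other 6. The median of the run was 3.51 and 3.76 in the high-Xist arrays and 7.05 to 7.72 elsewhere. The member with the lowest p for the split, 10608139, differed by -5.30 (SE 0.29, adjusted p = 0.0589), in a fit with the groups and the split that was chosen after the data were seen. In that fit 0 unnamed probesets and 0 of all probesets passed 0.05 for the split. Of the 18041 unnamed probesets tested, 768 had an unadjusted p under 0.05, a share that is itself below 0.05.

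**Figure D5:**
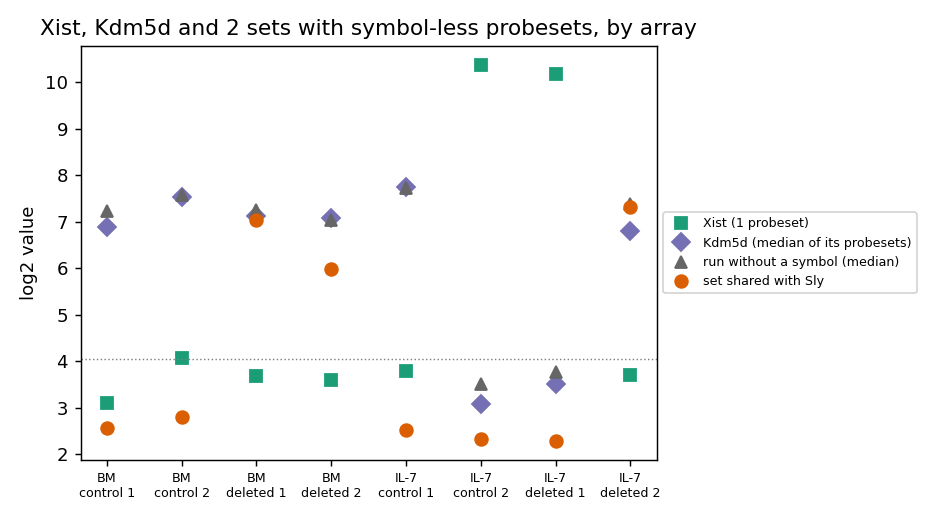
Log2 value in each of the 8 arrays of Xist (squares), the median of the Kdm5d probesets (diamonds), the median of the 17 unnamed probesets of 1 run (triangles) and the profile shared with Sly (circles), with the dim threshold dotted. The run and Kdm5d are low where Xist is high (culture control 2 and deleted culture 1), and the Sly profile is high in the other 3 deleted arrays only.

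Whether the deletion acted differently in culture and in bone marrow was tested as the difference between the 2 effects. With limma 0 unnamed probesets and 0% of all probesets passed, with 950 unnamed (5.27%) at an unadjusted p under 0.05 against 6.53% of all. The lowest p with a larger effect in culture belonged to the profile at 10415083, where the culture effect exceeded the bone marrow effect by 4.75 (SE 0.62, adjusted p = 0.607). Of those with the opposite sign, 10574254 read 5.43 and 5.46 in bone marrow controls, 6.69 and 6.71 in deleted bone marrow cells, 6.32 and 6.88 in culture controls and 4.35 and 4.74 in deleted cultures, a difference of -3.31 (SE 0.44, adjusted p = 0.607). The other 2 with the lowest p in that direction, 10414841 and 10342102, differed by -3.54 (SE 0.47) and -3.63 (SE 0.49). Over the 8 arrays 10414841 read 3.79 to 6.61 and 10342102 read 2.45 to 5.15, so some of their values lay under the dim threshold.

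Culture with Bcl2 against bone marrow was compared in control cells, which serve as controls of the deletion comparisons too. Of the unnamed probesets 0 passed with limma, against 0.000498% of all probesets (1 named probeset), and 1330 (7.37%) had an unadjusted p under 0.05 against 9.03% of all. With an intensity trend in the prior variance 12 passed, where 82 of all probesets did. The lowest p belonged to 10419155, which read 9.94 and 9.88 in bone marrow controls and 4.67 and 4.98 in culture controls, a difference of -5.08 (SE 0.29, adjusted p = 0.0556). The deleted cells read much the same, at 9.35 and 9.78 in bone marrow and 4.61 and 4.74 in culture. A profile shared by 10419157 and 10598177 read 9.72 and 9.32 against 4.80 and 4.99, a difference of -4.63 (SE 0.33, adjusted p = 0.0559). The neutrophil and monocyte markers were also lower in culture, at the levels given above, and their part in these values was not tested.

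In the other direction 10414964 was dim in all 4 bone marrow arrays (3.33 to 3.73) and read 6.29 and 6.31 in culture controls, a difference of 2.87 (SE 0.28, adjusted p = 0.119). The probeset 10503084 read 3.08 and 2.83 in bone marrow controls and 6.11 and 5.45 in culture controls (2.82, SE 0.34, adjusted p = 0.142), and 3.81 and 3.61 in deleted cultures. The probeset 10403820 read 3.94 and 4.15 in bone marrow controls and 7.02 and 8.17 in culture controls (3.55, SE 0.48, adjusted p = 0.167). Both culture controls lay above both bone marrow controls in 4172 unnamed probesets (23.1%, against 19.7% of all) and below them in 2610 (14.5%, against 18.7% of all). With a size of at least 2, 118 unnamed probesets (0.654%) lay lower in culture, against 1.55% of all, and 83 (0.46%) lay higher, against 0.523%.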

How the data were processed

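The authors deposited log2 values per probeset, from Affymetrix Expression Console (1.2.0.20), with RMA, which corrects background, equalises the arrays' distributions and summarises probes, per the submitters' processing notes. The labels' protocols give cell sorting, column RNA isolation, Nugen amplification and biotin labelling. The log2 values were used as deposited. Array design, annotation build and scan batches are not given in the sources used here. Precision is limited by having 2 arrays a group.

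Unnamed probesets are those that the platform annotation does not list. Probesets above the 25th percentile (log2 4.04) in at least 2 arrays were tested, 200969 in all. A model with 4 group means was fitted with limma 3.58.1 (R 4.3.3; 4 residual and 2.9 prior degrees of freedom), two-sided; p-values were adjusted (Benjamini-Hochberg) across every tested probeset, threshold 0.05; SE is that of the moderated fit. The script was tested on simulated data. Probesets that may be array controls were not marked in the sources used here and stayed in.

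Probesets named are up to 10 rises and 10 falls past 0.05 with separated groups for each deletion comparison, otherwise the 3 with the lowest p each way, and the 5 brightest. The planned classes by accession could not be formed. Others named, the identifier runs and the identical-value sets were chosen after their values were seen. Members and lists were chosen with earlier results of these data known. Alternatives changed the filter, normalisation, variance model, weights, arrays, block and copies. Same-numbered control and deleted arrays deviated together at r = 0.0374 in bone marrow and 0.0954 in culture, so the numbers were not taken to pair samples. In culture the neutrophil and monocyte marker means did follow the number, at the levels given above, and Xist did not.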

Additional observations from a re-analysis of the deposited data

How the results depend on the processing

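Counts of unnamed probesets past 0.05 depended on the variance model, the filter and the arrays. Over all probesets the main fit called 169 for the mean, 17 in culture, 0 in bone marrow and 1 for culture against marrow. In the same order the intensity trend called 1057, 187, 102 and 82 of all. The filter at the median called 541, 47, 0 and 24 of all. For the mean of both deletions (31) the count was 61 with a filter at the median, 92 with an intensity trend in the prior variance, 0 with the replicate block, and 0 to 11 when each array was left out in turn. For deletion in culture (10) it was 31 with the trend, 0 with only the groups compared, 0 with the replicate block and 0 to 7 with each array left out. Bone marrow deletion (0) gave 24 with the trend, and culture against marrow (0) gave 12 with the trend, 5 with the filter at the median and 0 to 14 with each array left out. The difference between the deletions stayed at 0 under every alternative run, with 565 to 1338 at an unadjusted p under 0.05. Among alternatives chosen after seeing the data, 1 probeset per set of identical values gave 19 for the mean and 0 in culture, and the Xist covariate, leaving out both high-Xist arrays, and leaving out both culture arrays numbered 2 each gave 0 for both. Counts for the mean and for culture stayed within 1.5 times with no filter (28 and 9), quantile normalisation again (31 and 10), centring on the unnamed probesets (33 and 9), array weights (30 and 9), several-symbol probesets left out (34 and 10) and the early block left out (31 and 10). None of the unnamed probesets chosen by the rule of size or lowest p, or past 0.05, changed sign under the alternatives run. They were picked for size or low p in these same arrays. A change of filter or prior variance also leaves the difference itself unchanged, so the constant sign is no support for them. Probesets chosen after their values were seen were not rerun. The largest rise past 0.05 ran from 5.65 to 6.56 for the mean. The cause of these changes was not tested. The 2 arrays per group and 4 residual degrees of freedom limit what can be called, and values under 4.04 have uncertain sizes.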
